A study of Homo sapiens with 12 samples.

Results

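Cells carry enzymes that rewrite or starve foreign nucleic acids, and 7 of their genes are described here. These are ADAR and ADARB1, which edit RNA, SAMHD1, which degrades deoxynucleotides, and APOBEC3B, APOBEC3C, APOBEC3F and APOBEC3G, which edit single-stranded DNA. The rule names them by symbol among the 25268 genes measured and holds no measured value. They were chosen with earlier results of these data known, however. Their mRNA was followed after overexpression of RBMX, an RNA-binding protein of the heterogeneous nuclear ribonucleoprotein family. All 7 symbols were found once and all 7 passed the minimum mean level of 0.5 FPKM. In both RNA fractions the mean levels of SAMHD1, ADAR and APOBEC3G were between 1.63 and 2.73 times as high with RBMX as without, those of APOBEC3B and APOBEC3F between 1.29 and 1.48 times, and those of ADARB1 and APOBEC3C between 0.971 and 1.13 times. No difference passed the threshold set over all genes tested.

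The data came from HEK293 cells, an established cell line of human embryonic kidney origin. For a transient transfection with Lipofectamine2000 they received either 2 μg of pCMV6-HIS-HA-RBMX, which codes for RBMX with His and HA tags, or a mock vector without insert, and RNA was extracted 48 h later. The control is called wild type in the labels, but it also received a transfection, so no library comes from untransfected cells. Cells were treated with cycloheximide, which holds ribosomes in place, before lysis, and the lysates were separated on a sucrose gradient. Polysomal RNA was taken from the heavy fractions, where mRNAs carry several ribosomes, and total RNA was pooled from a fixed share of every fraction. Each of the 4 groups (control total, control polysomal, RBMX total and RBMX polysomal) has 3 biological replicates, which makes 12 libraries. Levels are in FPKM, the fragments assigned to a gene after correction for transcript length and library size, so they are comparable between genes of different length.

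ADAR and ADARB1 are adenosine deaminases acting on RNA. They turn adenosine into inosine in double-stranded RNA. ADAR is made from a constitutive and from an interferon-inducible promoter, and its editing keeps the cell's own double-stranded RNA from being sensed as foreign. SAMHD1 is a triphosphohydrolase that lowers the supply of deoxynucleotides, which limits reverse transcription. The APOBEC3 proteins turn cytidine into uridine in single-stranded DNA and thereby mutate retroviruses and retrotransposons. APOBEC3G and APOBEC3F are packaged into HIV-1 particles that lack Vif, while APOBEC3B is mostly nuclear and is known for mutating tumour genomes. Type I interferon raises ADAR, SAMHD1 and several APOBEC3 genes in many cell types.

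On GRCh38 with GENCODE v29, ADAR lies at chr1:154582057-154628013 on the minus strand, ADARB1 at chr21:45073853-45226560 on the plus strand and SAMHD1 at chr20:36889773-36951901 on the minus strand. The APOBEC3 genes form one cluster on the plus strand of chromosome 22, with APOBEC3B at chr22:38982347-38992804, APOBEC3C at chr22:39014083-39020352, APOBEC3F at chr22:39040604-39053910 and APOBEC3G at chr22:39077005-39087743. These spans run over all exons, introns and UTRs of each gene and were not used to make the FPKM values. The cluster members resemble each other closely, which matters for paired reads of 100 bases. In the longest coding transcripts, APOBEC3F and APOBEC3G were identical over their first 142 coding bases, and APOBEC3B and APOBEC3D over their first 172. The longest identical run was 222 bases between APOBEC3F and its neighbour APOBEC3D, 196 between APOBEC3B and APOBEC3A and 131 between APOBEC3B and APOBEC3F. Of all 100-base windows of the coding sequence, 19.4% in APOBEC3F, 14.7% in APOBEC3B and 4.08% in APOBEC3G also occurred in a transcript with another gene symbol. That share was 0 for ADAR, ADARB1, SAMHD1 and APOBEC3C, although APOBEC3C had identical runs of 81 bases with APOBEC3F and 73 bases with APOBEC3D. These window shares do not count what a mate outside the shared stretch tells, so they are not shares of fragments that cannot be placed. How fragments from shared stretches were split between genes is not given in the sources used here. The levels of APOBEC3B, APOBEC3F and APOBEC3G are therefore less certain than those of ADAR, ADARB1 and SAMHD1, and that of APOBEC3C may be too.

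The first 30 coding bases, which are spliced from more than one exon, are shown for the cluster because they hold the start of the stretch that APOBEC3F and APOBEC3G share. Capitals mark bases that differ from APOBEC3G. APOBEC3B and APOBEC3C differ from it at 8 of the 30 positions each.
APOBEC3G: atgaagcctcacttcagaaacacagtggag
APOBEC3F: atgaagcctcacttcagaaacacagtggag
APOBEC3B: atgaaTccAcaGAtcagaaaTCcGAtggag
APOBEC3C: atgaaTccAcaGAtcagaaacCcGAtgAag

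The shared stretch ends inside coding bases 128 to 157, which lie within one exon, at chr22:39079042-39079071 in APOBEC3G and at chr22:39043047-39043076 in APOBEC3F, both on the plus strand. These 30 bases are shown because a read from this stretch must cover the capital base to tell the pair apart by its own bases here. What its mate or the bases before the start codon add was not examined. The capital is the 1 base that differs from APOBEC3G.
APOBEC3G: gtccctcaaggccccctttggacgcaaaga
APOBEC3F: gtccctcaaggccccGtttggacgcaaaga

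Before the enzymes were compared, RBMX itself was checked in every library. Its level was 147, 145 and 108 FPKM in control total RNA and 146, 148 and 87.4 FPKM in control polysomal RNA. With the plasmid it was 1731, 2073 and 1460 FPKM in total RNA and 1167, 1328 and 1072 FPKM in polysomal RNA, 13.1 and 9.36 times the control means, and it rose in both comparisons (adjusted p = 0.00269 and 0.0415). The third replicate stood apart in the control group. Among 14166 tested genes other than small RNA genes, 6.47% in control total replicate 3 and 12.6% in control polysomal replicate 3 differed by more than 1.5-fold from both other replicates in the same direction, against 0.0565% to 1.29% in the other 10 libraries. The summed level of 5 genes listed for HEK293 cells (KRT8, KRT18, VIM, NEFM, NEFL) was 427 FPKM in control total replicate 3 and 394 FPKM in control polysomal replicate 3, against 829 to 968 FPKM in the other 10. All 5 were expressed, and none passed the adjusted threshold. Among 7 white blood cell markers, only CD14 and CD68 passed the minimum mean level. CD14 had group means from 1.30 to 1.65 FPKM, while CD3E and PTPRC had group means of at most 0.0421 FPKM. The summed level of the 7 was 6.49 to 7.26 FPKM in control and 9.13 to 34.1 FPKM in RBMX libraries. Most of that difference was CD68, whose mean was 5.13 FPKM in control and 18.8 FPKM in RBMX total RNA. Of 3 fibroblast markers, COL1A2 and COL3A1 were near 0 in all groups, and the summed level was 3.18 to 5.997 FPKM in control and 5.52 to 8.65 FPKM in RBMX libraries. The part of these shifts in the results was not tested. In bulk RNA, fewer cells of a type and less RNA per cell cannot be told apart.

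**Figure D1:**
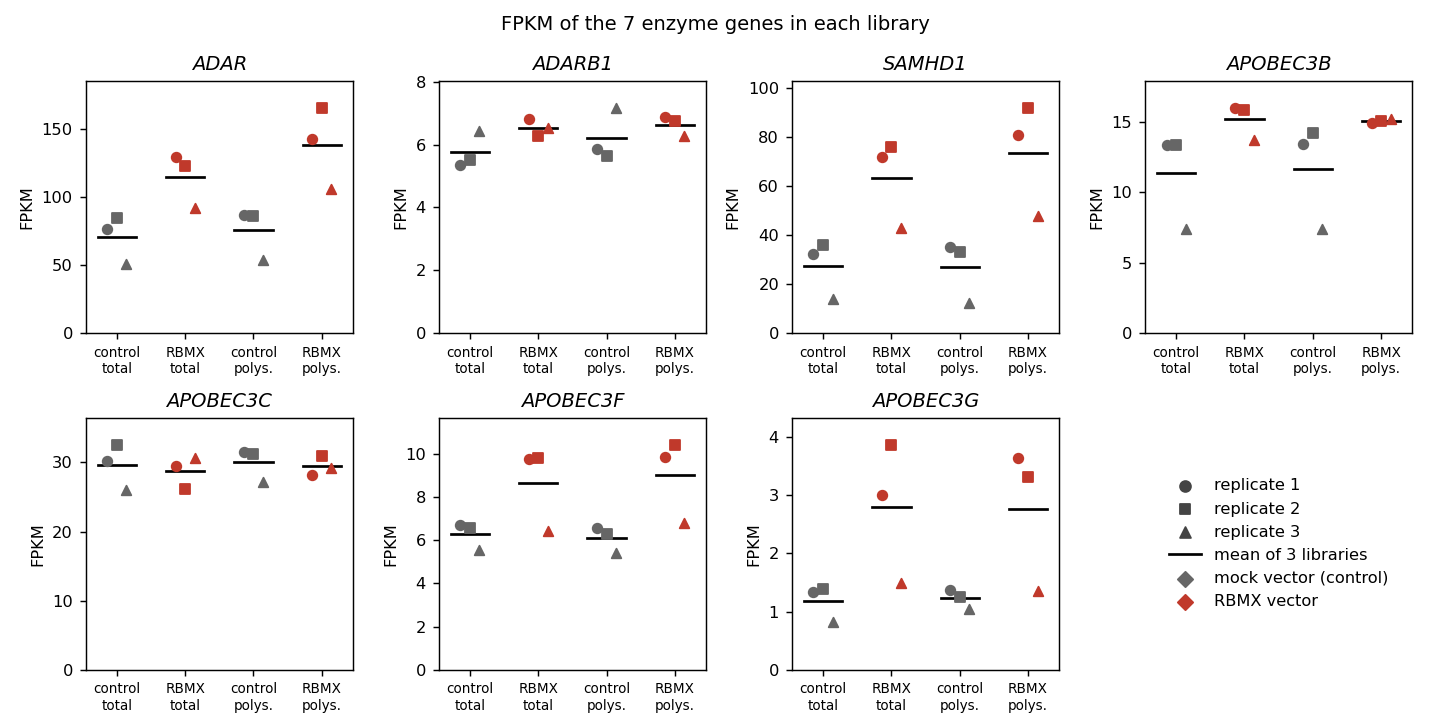
FPKM of the 7 genes (vertical axes, each starting at 0) in the 4 groups (horizontal axis), with 1 point per library, the marker shape giving the replicate and the black bar the mean of 3 libraries. The points of ADAR, SAMHD1 and APOBEC3B do not overlap between vectors in either fraction, those of APOBEC3G overlap in polysomal and those of APOBEC3F in total RNA, and those of ADARB1 and APOBEC3C overlap in both.

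The levels differed widely among the enzymes. In control total RNA the mean level was highest for ADAR (70.5 FPKM), followed by APOBEC3C (29.6), SAMHD1 (27.4), APOBEC3B (11.4), APOBEC3F (6.28), ADARB1 (5.78) and APOBEC3G (1.19 FPKM). The ranges of APOBEC3C and SAMHD1 overlapped, as did those of APOBEC3F and ADARB1. Control polysomal RNA kept this order except that ADARB1 (6.22 FPKM) stood before APOBEC3F (6.09 FPKM), with overlapping ranges, and the ranges of SAMHD1 and APOBEC3B also overlapped. With RBMX, SAMHD1 stood second in both fractions, at 63.5 FPKM in total and 73.5 FPKM in polysomal RNA. All 3 SAMHD1 values then lay above all 3 APOBEC3C values of the same fraction. The only neighbours with overlapping ranges in the RBMX groups were APOBEC3F and ADARB1.

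Of the RNA editing enzymes, ADAR was measured at the highest level. Its FPKM was 76.5, 84.4 and 50.6 in control total RNA and 129.8, 123.0 and 92.0 in RBMX total RNA. In polysomal RNA it was 86.9, 86.2 and 53.8 in control and 143.1, 165.8 and 106.5 in RBMX cells. Every RBMX library lay above every control library of its fraction, and the third replicate was the lowest in each of the 4 groups. The means were 70.5 ± 17.7 and 114.9 ± 20.2 FPKM in total RNA and 75.6 ± 18.9 and 138.5 ± 29.9 FPKM in polysomal RNA (SD, n = 3). On the log2(FPKM + 1) scale, where the fold changes of low genes are understated, ADAR was 0.71 ± 0.23 higher with RBMX in total RNA (SE, adjusted p = 0.214, limma) and 0.87 ± 0.26 higher in polysomal RNA (adjusted p = 0.400). Neither difference passed the adjusted threshold of 0.05. The exact two-sided permutation test gave p = 0.1 in both fractions, the smallest p that 3 against 3 allows.

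ADARB1, the editor of glutamate receptor transcripts in brain, was measured at a low level. Control total RNA held 5.36, 5.52 and 6.44 FPKM and RBMX total RNA 6.81, 6.28 and 6.52 FPKM. Control polysomal RNA held 5.86, 5.64 and 7.16 FPKM and RBMX polysomal RNA 6.88, 6.75 and 6.26 FPKM. The groups overlapped in both fractions, because the third control replicate was the highest of its group, the reverse of its place for ADAR. The log2 difference was 0.16 ± 0.081 in total RNA (adjusted p = 0.355) and 0.085 ± 0.10 in polysomal RNA (adjusted p = 0.729). The polysomal value was 0.027 without control replicate 2 and 0.18 without control replicate 3. Across the 12 libraries the log2 levels of the pair of RNA editors correlated with r = 0.203, a description over libraries that share vector and fraction.

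SAMHD1 had the largest log2(FPKM + 1) difference among the 7 genes in both fractions, although by the ratio of mean FPKM in total RNA APOBEC3G was slightly higher. In control total RNA its level was 32.4, 35.9 and 13.8 FPKM, and in RBMX total RNA it was 71.8, 75.9 and 42.9 FPKM. In polysomal RNA it was 35.0, 33.2 and 12.5 FPKM in control and 80.8, 91.9 and 47.7 FPKM in RBMX cells. The lowest RBMX value lay above the highest control value in each fraction, and the third replicate was again the lowest of all groups. The ratio of the means was 2.32 in total and 2.73 in polysomal RNA. The log2 difference was 1.25 ± 0.42 in total RNA (adjusted p = 0.218) and 1.49 ± 0.46 in polysomal RNA (adjusted p = 0.400). Of the 14676 genes tested, 222 had a larger log2 difference in total RNA, as did 191 in polysomal RNA. The spread within groups came largely from replicate 3, which in control cells was at 0.403 times the mean of replicates 1 and 2 in total RNA and 0.366 times in polysomal RNA, and in RBMX cells at 0.581 and 0.552 times. Without replicate 3 of both vectors, an alternative chosen after seeing the data, the log2 difference was 1.09 in total RNA (adjusted p = 0.0196) and 1.31 in polysomal RNA (adjusted p = 0.0264). Without control replicate 3 alone it was 0.84 and 1.03, and without RBMX replicate 3 alone 1.51 and 1.77, with no adjusted p below 0.170 in these fits.

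**Figure D2:**
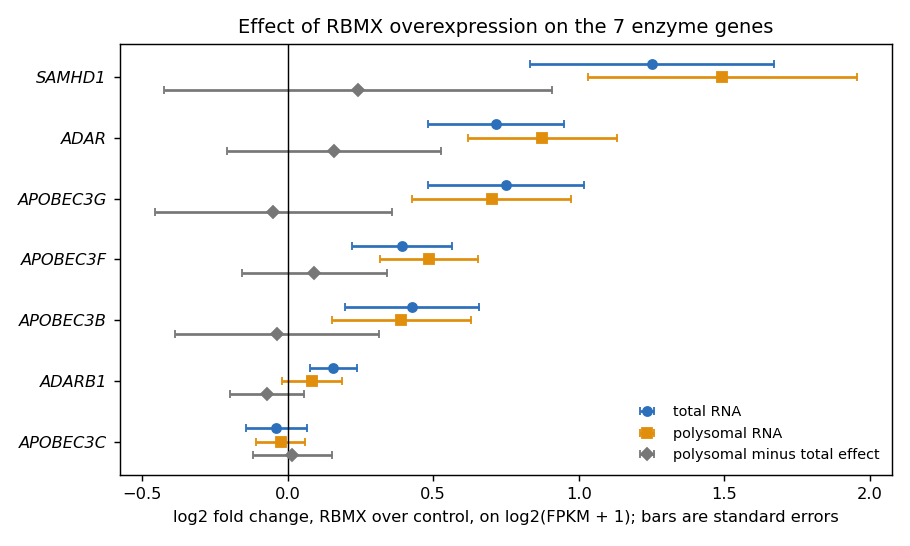
Log2 fold change of RBMX over control on the log2(FPKM + 1) scale (horizontal axis) for each gene in total RNA, in polysomal RNA and as the polysomal effect minus the total effect, with standard errors as bars. SAMHD1, ADAR and APOBEC3G stand furthest to the right, and every difference between the fractions lies within 1 standard error of 0.

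The 4 APOBEC3 genes gave unlike values although they are neighbours on one chromosome. APOBEC3G, the lowest of the 7 genes, was at 1.34, 1.40 and 0.827 FPKM in control total RNA and at 3.01, 3.86 and 1.50 FPKM in RBMX total RNA, where the groups did not overlap. In polysomal RNA it was at 1.37, 1.26 and 1.05 FPKM in control and at 3.63, 3.31 and 1.35 FPKM in RBMX cells, so that RBMX replicate 3 fell among the control values. The ratio of the means was 2.35 in total and 2.26 in polysomal RNA. The log2 difference was 0.75 ± 0.27 in total RNA (adjusted p = 0.235) and 0.70 ± 0.27 in polysomal RNA (adjusted p = 0.421). With a pseudocount of 0.1, which shrinks low genes less, the same differences were 1.10 and 1.00, and neither passed the threshold (adjusted p = 0.231 and 0.425). RBMX replicate 3 was at 0.436 times the mean of replicates 1 and 2 in total RNA and 0.389 times in polysomal RNA. Without it the polysomal difference was 1.01 and passed the threshold (adjusted p = 0.0269), as it did without replicate 3 of both vectors (0.95, adjusted p = 0.0261), while the total difference did not in either fit (adjusted p = 0.0964 and 0.0634).

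APOBEC3F, which also restricts retroviruses, was at 6.72, 6.59 and 5.53 FPKM in control total RNA and at 9.77, 9.80 and 6.45 FPKM in RBMX total RNA. Here RBMX replicate 3 lay below control replicates 1 and 2. In polysomal RNA the levels were 6.58, 6.30 and 5.39 FPKM in control and 9.86, 10.4 and 6.81 FPKM in RBMX cells, and the groups did not overlap. The log2 difference was 0.39 ± 0.17 in total RNA (adjusted p = 0.291) and 0.49 ± 0.17 in polysomal RNA (adjusted p = 0.406). APOBEC3F and APOBEC3G, which share their first coding bases as shown above, had the second highest correlation among the 21 pairs of the 7 genes (r = 0.977 over 12 libraries). The highest was that of ADAR and SAMHD1 (r = 0.986). These correlations run over libraries that share vector and fraction, and the part of shared fragments in them was not tested.

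APOBEC3B, the nuclear member, was at 13.4, 13.3 and 7.42 FPKM in control total RNA and at 16.0, 15.9 and 13.7 FPKM in RBMX total RNA. In polysomal RNA it was at 13.4, 14.2 and 7.38 FPKM in control and at 14.9, 15.0 and 15.2 FPKM in RBMX cells. The groups did not overlap in either fraction, but in both the third control replicate lay far below the other two. The log2 difference was 0.43 ± 0.23 in total RNA (adjusted p = 0.372) and 0.39 ± 0.24 in polysomal RNA (adjusted p = 0.524). Without control replicate 3 it was 0.17 and 0.12 (adjusted p = 0.262 and 0.306). APOBEC3C, a single-domain member, was at 30.2, 32.6 and 26.0 FPKM in control and at 29.4, 26.1 and 30.6 FPKM in RBMX total RNA. In polysomal RNA its levels were 31.5, 31.3 and 27.2 FPKM in control and 28.1, 30.9 and 29.3 FPKM in RBMX cells. The groups overlapped in both fractions, and the log2 difference was -0.039 ± 0.10 in total RNA (adjusted p = 0.867) and -0.024 ± 0.084 in polysomal RNA (adjusted p = 0.915).

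Taken as a list, 0 of the 7 genes passed the adjusted threshold in total RNA, where 0.164% of the 14676 genes tested did, and 0 of 7 in polysomal RNA, where 0.0477% did. At an unadjusted p under 0.05, 3 of 7 (ADAR, SAMHD1, APOBEC3G) were higher with RBMX in total RNA, against 7.93% of all genes tested. In polysomal RNA 4 of 7 (the same 3 genes and APOBEC3F) were higher, against 5.16%. None of the 7 was lower at that p in either fraction. All 3 RBMX libraries lay above all 3 control libraries for 4 of 7 genes in total RNA (ADAR, SAMHD1, APOBEC3B, APOBEC3G), against 11.9% of all genes tested, and for 4 of 7 in polysomal RNA (ADAR, SAMHD1, APOBEC3B, APOBEC3F), against 10.0%. The median log2 difference of the 7 genes was 0.43 in total and 0.49 in polysomal RNA, beside 0 over all genes tested in both. The 7 genes and the lists below were chosen with earlier results of these data known. Their counts beside all genes tested are therefore a description and not independent evidence of an excess.

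The next question was whether RBMX acted unequally on the polysomal and the total level of the enzymes. The polysomal effect minus the total effect ranged from -0.072 ± 0.13 for ADARB1 to 0.24 ± 0.67 for SAMHD1 on the log2 scale. None of the 7 passed the threshold (adjusted p = 1.00 for all), and 0.0204% of all genes tested did. This fit leaves out the pairing of total and polysomal libraries, and in it a SAMHD1 difference of the size of its standard error was not detectable. Polysomal RNA was also compared with total RNA within each vector. In control cells the log2 differences ran from -0.044 for SAMHD1 to 0.10 for ADAR (adjusted p from 0.935 to 1.00), and 0 of 7 passed the threshold beside 0.0818% of all genes tested. In RBMX cells they ran from -0.018 for APOBEC3G to 0.26 ± 0.21 for ADAR (adjusted p from 0.503 to 0.990), with 0 of 7 beside 1.34%. At an unadjusted p under 0.05 the count of members was also 0 in these 3 comparisons. A block for the culture, which pairs the total and polysomal libraries of one gradient, changed no call of a member. In RBMX cells the members' adjusted p (limma) then ran from 0.204 for SAMHD1 and 0.219 for ADAR to 0.952 for APOBEC3B. The number of genes called with the block went from 3 to 5 for the difference between fractions, from 12 to 6 in control cells and from 196 to 4 in RBMX cells.

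Most of the closest relatives were below the minimum mean level. Of 13 other deaminase genes of the same families, 9 had a mean below 0.5 FPKM over the 12 libraries and were not tested, among them APOBEC1, the editor of apolipoprotein B mRNA, APOBEC2, APOBEC4, APOBEC3A, APOBEC3H, ADARB2, ADAD1 and ADAD2. Their highest group mean was 0.440 FPKM, for APOBEC3H in RBMX total RNA, beside 0.223 FPKM in control total RNA. APOBEC3D, the partner of long identical runs in APOBEC3F and APOBEC3B, had a mean of 0.779 FPKM in control and 1.21 FPKM in RBMX total RNA. Its log2 difference was 0.30 in total RNA (adjusted p = 0.334, limma) and 0.25 in polysomal RNA (adjusted p = 0.549), and its groups overlapped. ADAT1, ADAT2 and ADAT3 edit tRNA. ADAT3 gave 0.24 in total and 0.28 in polysomal RNA, ADAT2 0.010 and -0.11, and ADAT1 -0.17 and -0.14. Of these 4 tested relatives none passed the adjusted threshold. In total RNA 1 of them (ADAT3) was higher at an unadjusted p under 0.05 and 0 were lower, beside 7.93% and 10.8% of all genes tested. None was higher or lower in polysomal RNA, beside 5.16% and 6.53%. The median log2 difference was 0.12 in total and 0.071 in polysomal RNA.

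**Figure D3:**
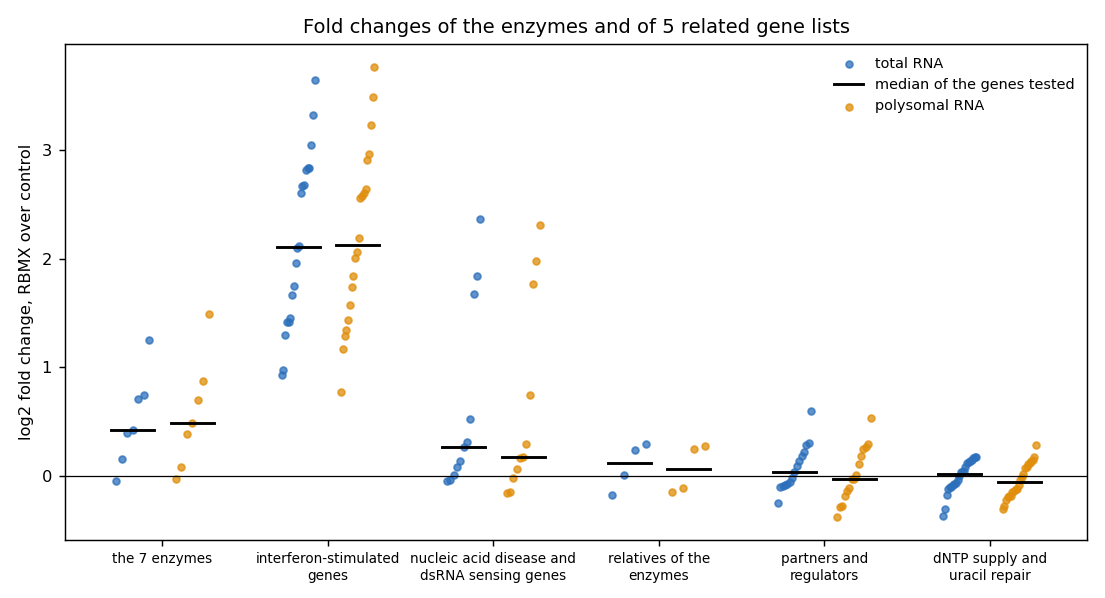
Log2 fold change of RBMX over control (vertical axis) for each tested gene of the 7 enzymes and of 5 related lists (horizontal axis), in total and in polysomal RNA, with black bars for the medians. The interferon-stimulated genes lie highest, with medians of 2.11 and 2.13, and the genes of deoxynucleotide supply and uracil repair lie around 0.

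SAMHD1 acts on deoxynucleotides and the APOBEC3 enzymes leave uracil in DNA, so the genes that make deoxynucleotides, remove uracil or control SAMHD1 by phosphorylation were listed beside them. All 22 were tested, and none passed the adjusted threshold in either fraction. At an unadjusted p under 0.05, 0 of 22 were higher and 2 lower in total RNA, beside 7.93% and 10.8% of all genes tested. In polysomal RNA 0 were higher or lower, beside 5.16% and 6.53%. One of the 2 lower genes, named after its value was seen, was RRM2B, a ribonucleotide reductase subunit, with -0.30 in total RNA (adjusted p = 0.189, limma). The ribonucleotide reductase subunits RRM1 and RRM2 gave 0.18 and 0.16 in total RNA, DUT, which keeps uracil out of DNA, gave -0.037, and UNG, which excises it, gave 0.14. CCNA2 and CDK2, the cyclin and kinase that phosphorylate SAMHD1, gave 0.15 and 0.035. The median was 0.021 in total and -0.053 in polysomal RNA.

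ADAR and SAMHD1 are also genes of Aicardi-Goutières syndrome, an inherited interferon disease, and were set beside the other genes of that disease and beside the sensors of nucleic acids. Of 13 genes 11 were tested, and 0 passed the adjusted threshold in either fraction. At an unadjusted p under 0.05, 4 of 11 were higher with RBMX in both fractions, beside 7.93% of all genes tested in total and 5.16% in polysomal RNA. The 4 were IFIH1, DDX58 and DHX58, the cytoplasmic sensors of viral RNA, and EIF2AK2, the kinase that stops translation on double-stranded RNA. IFIH1 had a mean of 6.73 FPKM in control and 25.5 FPKM in RBMX total RNA, with log2 differences of 1.67 in total (adjusted p = 0.183) and 1.76 in polysomal RNA (adjusted p = 0.400). EIF2AK2 went from 28.5 to 41.2 FPKM in total RNA, with 0.53 and 0.75 (adjusted p = 0.243 and 0.417). DDX58 and DHX58, named after their values were seen, gave 1.84 and 2.36 in total RNA. The nucleases of the disease gave small values in total RNA, 0.083 for TREX1 and 0.14 for RNASEH2A. ZBP1, a sensor that ADAR holds in check, had a mean of at most 0.112 FPKM in each group and was not tested. The median of the list was 0.27 in total and 0.17 in polysomal RNA.

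Of 17 known partners and regulators of the enzymes, 15 were tested and none passed the adjusted threshold. At an unadjusted p under 0.05, 3 of 15 were higher and 1 lower in total RNA, beside 7.93% and 10.8% of all genes tested. In polysomal RNA 0 were higher or lower, beside 5.16% and 6.53%. DHX9, a helicase that binds ADAR, gave 0.31 in total RNA (adjusted p = 0.201), and MOV10, a helicase found with APOBEC3G in ribonucleoprotein complexes and named after its value was seen, gave 0.60 (adjusted p = 0.229). CBFB, which Vif recruits to destroy APOBEC3G, gave -0.25 (adjusted p = 0.234). AIMP2, a regulator of ADAR-family enzymes, gave 0.14. The median was 0.037 in total and -0.023 in polysomal RNA.

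The 20 listed interferon-stimulated genes had larger differences than the enzymes. None passed the adjusted threshold in total RNA (lowest adjusted p = 0.170) or in polysomal RNA (lowest adjusted p = 0.400). At an unadjusted p under 0.05, 20 of 20 were higher with RBMX in total RNA and 19 of 20 in polysomal RNA, beside 7.93% and 5.16% of all genes tested. The RBMX libraries lay above all control libraries for 20 of 20 genes in both fractions, beside 11.9% and 10.0%. The median log2 difference was 2.11 in total and 2.13 in polysomal RNA. ISG15, a ubiquitin-like protein, had a mean of 298 FPKM in control and 1404 FPKM in RBMX total RNA (log2 difference 2.10, adjusted p = 0.176), and IFIT1, which binds foreign RNA caps, 56.8 and 388.8 FPKM (2.66, adjusted p = 0.182). IRF9, a transcription factor of the interferon response, gave 0.93 in total RNA, a value between those of ADAR and SAMHD1.

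Library by library, the summed level of these 20 genes was 1252, 1390 and 806 FPKM in control total RNA and 7218, 7544 and 2462 FPKM in RBMX total RNA. In polysomal RNA the sums were 1358, 1371 and 950 FPKM in control and 7820, 7010 and 2731 FPKM in RBMX cells. Replicate 3 had the lowest sum in all 4 groups, as it had the lowest ADAR, SAMHD1, APOBEC3F and APOBEC3G levels there. The summed level of the 7 enzymes was also lowest in replicate 3 of each group, with 165.9, 179.7 and 110.6 FPKM in control total RNA and 266.6, 260.8 and 193.6 FPKM in RBMX total RNA. In polysomal RNA it was 180.7, 178.1 and 114.4 FPKM in control and 287.4, 324.2 and 213.1 FPKM in RBMX cells. Between replicates 1 and 2 of the RBMX groups the order of this sum was the opposite of that of the interferon-stimulated genes in both fractions. Replicate 3 was not the lowest everywhere for the other members, since RBMX replicate 3 was the highest for APOBEC3C in total and for APOBEC3B in polysomal RNA, and control replicate 3 the highest for ADARB1 in both fractions. The part of the interferon-stimulated genes in the differences of the enzymes was not tested.

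**Figure D4:**
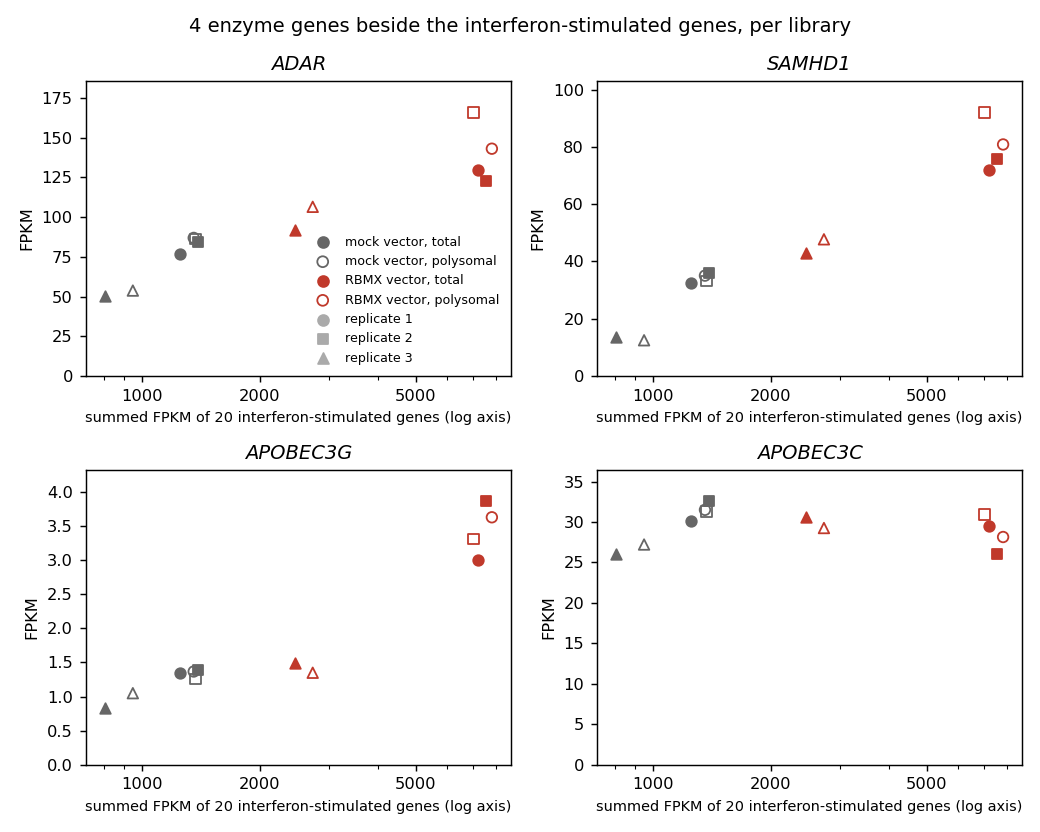
FPKM of ADAR, SAMHD1, APOBEC3G and APOBEC3C (vertical axes, starting at 0) against the summed FPKM of 20 interferon-stimulated genes (horizontal axis, log scale) in each of the 12 libraries, with colour for the vector, filled or open markers for total or polysomal RNA and shapes for the replicate. The RBMX replicate 3 libraries lie between the control libraries and the other RBMX libraries, at sums of 2462 and 2731, and APOBEC3C stays between 26.0 and 32.6 FPKM throughout.

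Genes whose log2 levels over the 12 libraries were most like each enzyme were then listed, as a description of libraries that share vector, fraction and culture. For ADAR these were TRIM25 (r = 0.995), LARS2 (0.991) and TRIM56 (0.988), for SAMHD1 SP110 (0.996) and TRIM25 (0.992), and for APOBEC3F WARS (0.993), TRIM5 (0.988) and LAMP3 (0.982). APOBEC3G was most like GBP1 (0.984), FAM26E (0.983) and TRIM34 (0.983). APOBEC3B was most like EIF2B4 (0.993), UMPS (0.992) and ZNF622 (0.991). The likeness was lower for ADARB1, with FGFR3 (0.940), MZF1 (0.937) and STK19 (0.936), and for APOBEC3C, with IRS4 (0.936), OSBP2 (0.917) and KIAA1462 (0.905). APOBEC3C correlated with the other members between -0.527 (ADARB1) and 0.463 (APOBEC3B). The core of the interferon-stimulated response element, GAAA then any 2 bases then GAAA, was searched on both strands of the RefSeq promoter windows of 300 bases, as the only motif. It occurred in 3.57% of all 35116 windows and in 0 of the 8 windows of ADAR, ADARB1 and SAMHD1, the 3 members with an entry. So few windows at so low a share cannot set these genes apart from the rest. Whether the windows cover the interferon-inducible promoter of ADAR was not examined. APOBEC3B, APOBEC3C, APOBEC3F and APOBEC3G were not looked at.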

How the data were processed

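The authors deposited FPKM values for 25268 gene symbols in 12 libraries, each made from 500 ng of RNA with a TruSeq kit. The submitters' processing notes list hg19, CASAVA 1.8, TopHat2 2.0.13, Cufflinks 2.2.1 and Cuffnorm, without roles. The paper's methods instead describe alignment to hg38 with a GENCODE annotation, counts scaled by library size and DESeq2. Which of these made the FPKM values, and with which annotation and scaling between libraries, is not given in the sources used here. Columns were matched by vector, fraction and replicate, and 0 were left unmatched. Sequencing depth is unknown. Of 1122 to 1392 genes with an FPKM up to 0.05 in a library and in control total replicate 1, at most 23.5% shared one step of 0.05 in log2 ratio, so no relative depth, floor or interval is given.

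Because FPKM values are not counts, they were compared as log2(FPKM + 1) with limma 3.58.1 (lmFit, eBayes with trend) in R 4.3.3, over 14676 genes with a mean of at least 0.5, with Benjamini-Hochberg adjustment and a threshold of 0.05. Each fraction was fitted on its own 6 libraries, the difference between fractions on 12, and polysomal against total RNA within each vector. The fits were tested on simulated data with independent noise per gene and library, without pairing and without a replicate that stands apart. For RBMX against control, 73% of genes changed by 1 on the log2 scale were recovered in each fraction. The changed genes were drawn only from those with a mean log2(FPKM + 1) above 2, so none was as low as APOBEC3G. Of the calls, 2.98% in total and 5.92% in polysomal RNA were false. The libraries here differ from that setting, so these shares may not hold for them. Replicates are called biological by the study, and p-values measure their spread. Total RNA was pooled from the same gradient as polysomal RNA, which pairs these libraries. Across all genes tested, which are not independent, their deviations correlated with r from 0.0758 to 0.311 in control and 0.00177 to 0.0893 in RBMX cultures. Across 14166 genes without small RNA genes, a set chosen after seeing the data, r was 0.610 to 0.835 and 0.0243 to 0.662. The pairing therefore rests on the methods. The labels also mention 2 dishes for total and polysomal extractions, so this pairing may be looser.

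Members and gene lists were chosen with earlier results of these data known. Named genes are the 7 enzymes, RBMX, 13 relatives, list genes past the threshold, a fixed set of list genes and the 3 genes most like each member. A few results covered by this rule are not reported here. Sequences came from GENCODE v29 and promoter windows from RefSeq, both on GRCh38. Python 3.11.15, pandas 2.3.3, scipy 1.17.1 and matplotlib 3.10.9 were used. The alternatives were other pseudocounts, filters, scalings, eBayes without trend, a replicate block, a joint fit of 12 libraries and leaving out single replicates. Leaving out replicate 3 of both vectors was chosen after seeing the data.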

Additional observations from a re-analysis of the deposited data

How the results depend on the processing

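No member passed the threshold under the pseudocount, filter, scaling, trend, block or 12-library alternatives. The count of members past it was 1 in total RNA without replicate 3 of both vectors (SAMHD1), 2 in polysomal RNA in that fit (SAMHD1, APOBEC3G), and 0 to 1 in polysomal RNA with single replicates left out (APOBEC3G without RBMX replicate 3). The number of genes called in total RNA (24) was 62 with a minimum mean of 0.1 FPKM, 77 with no filter, 13 with the replicate block, 60 in one fit of 12 libraries, 306 without replicate 3 of both vectors and 19 to 178 with 1 replicate left out. In polysomal RNA (7) it was 14, 31, 3, 22 and 348 in the same order, and 9 to 126 with 1 replicate left out. For the difference between fractions (3) it was 5 with the block, 14 without replicate 3 of both vectors and 4 to 7 with 1 replicate left out. For polysomal against total RNA it was 6 with the block and 13 to 199 with 1 replicate left out in control cells (12), and 61 with no filter, 70 with quantile normalization, 4 with the block and 21 to 23 with 1 replicate left out in RBMX cells (196). Fewer samples and genes tested are built into some of these, and otherwise the cause was not tested. Control and RBMX libraries share only a replicate number, since no source ties them and not every pair's deviations correlated above 0.1 (r from -0.066 to 0.028 across all genes tested and from -0.17 to 0.34 without small RNA genes), so the block there is given as a count only.

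Small differences changed sign. With 1 replicate left out, the RBMX effect on APOBEC3C ranged from -0.13 to 0.031 in total and from -0.090 to 0.012 in polysomal RNA. The difference between fractions ranged from -0.085 to 0.065 for APOBEC3C, -0.16 to 0.028 for APOBEC3G and -0.11 to 0.0076 for APOBEC3B, and was 0.052 for APOBEC3G without replicate 3 of both vectors. Polysomal against total RNA in control cells ranged from -0.0017 to 0.043 for APOBEC3B, -0.12 to 0.00018 for SAMHD1 and -0.034 to 0.091 for APOBEC3G. In RBMX cells it ranged from -0.083 to 0.034 for APOBEC3B, -0.13 to 0.060 for APOBEC3G, -0.018 to 0.052 for ADARB1 and -0.062 to 0.087 for APOBEC3C, and quantile normalization gave 0.0049 for APOBEC3B and 0.028 for APOBEC3G. The RBMX effects on the other 6 enzymes stayed above 0 in every alternative run. Rescaling moved the median of all genes by at most 0.035 on the log2 scale.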
